A study of Homo sapiens with 12 samples.

Results

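The transcriptional response to HTRA2 knockdown was examined in TNF-α-stimulated NCM460 cells, a cell line labelled as human normal colonic epithelial cells. Of the 12 poly(A)-selected RNA-seq libraries of the series, the 3 from cells given TNF-α with HTRA2 knocked down were compared with the 3 from cells given TNF-α alone, so that 6 libraries entered this comparison. The libraries were chosen by their labels, and 11216 of the 58735 genes in the table, those that averaged 1 FPKM or more across the 6 libraries, were tested. FPKM corrects a gene's fragments for its length and for the depth of the library. Every group of this comparison was exposed to TNF-α, whose dose and duration the labels do not give. The knockdown was made by transient siRNA transfection. The study describes this knockdown beside a control siRNA (si-CTRL), but the labels name none for the TNF-α libraries. If they received none, exposure to a transfected siRNA and loss of HTRA2 cannot be told apart. The sources also do not say whether the 3 knockdown libraries, called libraries 1 to 3 here (si1, si2 and si3 in the labels), received 1 siRNA or 3 different ones. Nothing says that libraries of a group came from separate cultures, so the p-values measure the spread between libraries of a group, which may be technical. In the main fit this spread was estimated from all 12 libraries of the series.

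HTRA2 encodes a serine protease held in the space between the mitochondrial membranes, where it takes part in protein quality control. When mitochondria release it into the cytosol, it binds and cleaves inhibitor of apoptosis proteins. TNF-α signals through TNFR1 to NF-κB, which switches on chemokines, cytokines and the pathway's own inhibitors, and type I and III interferons signal through JAK kinases and STAT factors to switch on antiviral genes.

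HTRA2 (ENSG00000115317, chr2:74529377-74533348, plus strand, GRCh38) fell in the knockdown. Its FPKM was 15.4, 14.0 and 14.2 with TNF-α and 7.44, 7.18 and 7.22 in the knockdown. All 3 knockdown libraries lay below every TNF-α library, and the mean dropped from 14.5 ± 0.774 to 7.28 ± 0.137 (SD, n = 3), a ratio of 0.502. The difference was -0.98 on the log2 scale with a standard error of 0.09 (adjusted p = 6.61e-06, limma), and the exact two-sided permutation test of 3 libraries against 3 gave p = 0.1, the smallest it can give. HTRA2 was 14.0, 17.2 and 13.3 FPKM in medium and 15.4, 15.5 and 14.8 with TNF-α and 5-OH-TMT (labelled Bufotenidine). On the other strand AUP1 shares 563 bases with HTRA2 and LOXL3 shares 935, and the sources used here do not say if counting took strand into account. AUP1, a lipid droplet protein, had 59.5 ± 1.47 FPKM with TNF-α and 58.8 ± 11.2 in the knockdown (SD, n = 3; adjusted p = 0.846). LOXL3, a lysyl oxidase of the extracellular matrix, fell from 1.33, 1.40 and 1.27 FPKM to 0.718, 0.470 and 0.906 (log2 difference -0.88, SE 0.20, adjusted p = 0.00507), and passed the filter only through TNF-α. Reads of HTRA2 and LOXL3 in the shared stretch cannot be told apart without strand. The paralogs HTRA1, HTRA3 and HTRA4 lay under the expression filter.

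**Figure D1:**
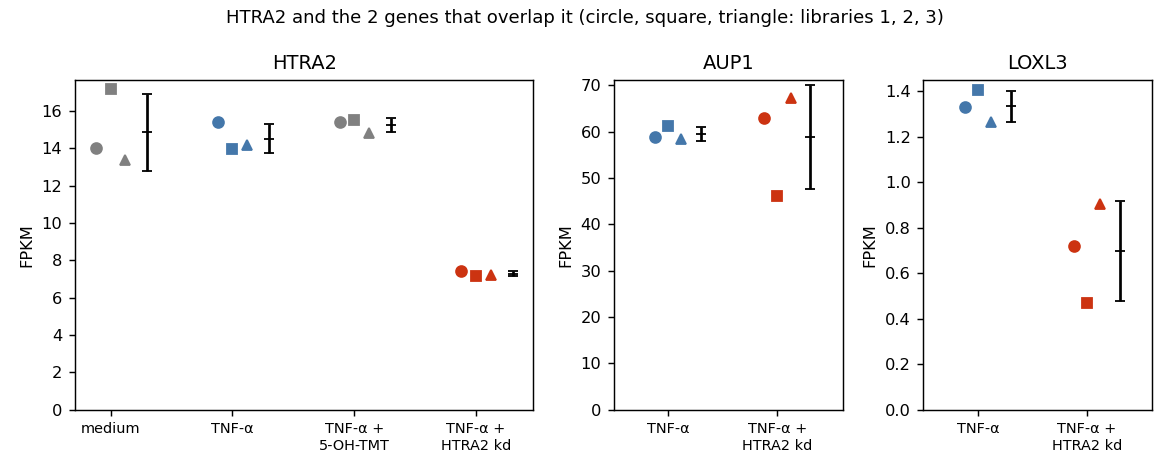
FPKM of HTRA2 in the 12 libraries of the series and of AUP1 and LOXL3 in the 6 libraries compared, on linear axes from 0. Each symbol is 1 library, and the bar beside them is the mean with its SD (n = 3). HTRA2 lies between 7.18 and 7.44 in the knockdown and between 13.3 and 17.2 in the other 9 libraries.

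The libraries held between 31526461 and 37624399 reads on genes, and 3 reads on a gene of 1 kb amounted to 0.0805 to 0.0962 FPKM. The labelled cell type was checked against markers. KRT8, KRT18, EPCAM and CDH1 were expressed, with KRT8 at 1111 ± 82.8 and EPCAM at 74.4 ± 9.07 FPKM with TNF-α (SD, n = 3), whereas no library of the comparison had a read on CDX1, CDX2, VIL1 or CEACAM5, and KRT20 and LGALS4 had at most 8 reads. Basal and squamous keratins were present, with KRT5 at 125 ± 11.8 and KRT14 at 34.7 ± 4.72 FPKM with TNF-α. Of the 5 squamous and basal markers tested, KRT5, KRT6A and DSG3 rose in the knockdown, by 0.41, 0.48 and 0.67 on the log2 scale, TP63 fell by 0.34, and KRT14 did not pass the test (0.25). DSG3 passed the filter only through the knockdown, and the fall of TP63 was lost without TNF-α library 1 or 2. Of the 5 colon epithelium markers tested, 2 rose, with the largest log2 difference at 0.77, and none fell. Of the 8 immune markers, none passed the filter, and their summed FPKM was 0.332 to 0.470 with TNF-α and 0.969 to 1.52 in the knockdown, with CD3E and TYROBP at 0. In the fibroblast list COL1A1 alone passed, at 1.17 and 2.89 FPKM, and DCN and THY1 were at 0. In the endothelial list CDH5 alone passed, at 1.32 and 2.79 FPKM, and KDR was at 0. Their part in the results was not tested.

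Library 2 of the knockdown stood apart. Its log2 values differed from the mean of the other 2 with an SD of 0.328 over the genes tested, against 0.251 and 0.261 for libraries 1 and 3. The deviation moved with the GC content of the genes, with a Spearman correlation of -0.65 over genes, which share the library. It was 0.42 and 0.54 in libraries 1 and 3, which are not independent of library 2, since each is set against the others. With TNF-α it was -0.19 to 0.29. In medium libraries 1, 2 and 3 it was -0.25, 0.72 and -0.63, so a trend of this size was not particular to knockdown library 2. In the 25% of genes with the lowest GC content library 2 was higher by a median of 0.23 on the log2 scale, and in the 25% with the highest its median was -0.24. The mitochondrial genome took 2.95% of its reads, against 4.21% and 4.4997% in libraries 1 and 3 and 3.69% to 4.53% with TNF-α. Some results are therefore also given without library 2, though not every value that moved.

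**Figure D2:**
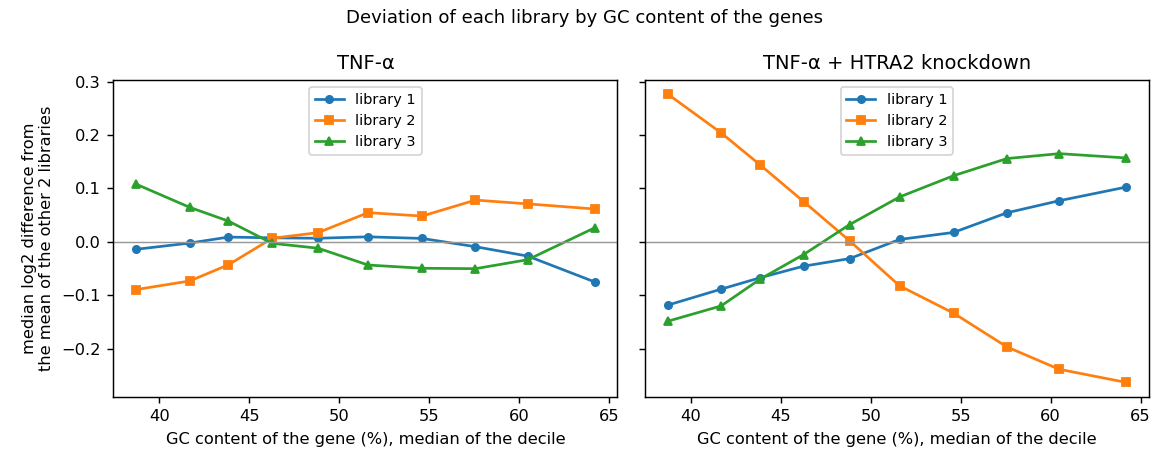
Median difference of each library from the mean of the other 2 of its group, in log2 units, for deciles of the genes tested by GC content in percent. Left, TNF-α; right, HTRA2 knockdown. Knockdown library 2 runs from 0.28 in the lowest decile to -0.26 in the highest, and the other 5 libraries stay between -0.15 and 0.17.

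Many genes differed between the groups by small amounts. At an adjusted p under 0.05, 3178 genes or 28.3% of those tested were called, of which 1563 were higher in the knockdown (13.9%) and 1615 lower (14.4%). The absolute log2 difference was under 1 in 91.3% of them. With a fold change of at least 2 and an unadjusted p of at most 0.05, the threshold for differentially expressed genes (DEGs), 234 genes were higher (2.09%) and 54 lower (0.481%). The median log2 difference over all genes tested was -0.03, and the 5th and 95th percentiles were -0.50 and 0.69. The count of lower genes dropped to 951 without TNF-α library 2 and to 956 without knockdown library 1, and without knockdown library 2 the counts were 1765 higher and 1670 lower. Of the genes tested, 249 had a mean under 1 FPKM with TNF-α and so passed the filter only through the knockdown, and 67 of these were DEGs that rose. On the other side, 160 had a mean under 1 FPKM in the knockdown and passed only through TNF-α, and 22 of these were among the 54 DEGs that fell. With the GC content correction 20.7% of all genes were called higher and 19.1% lower, and with array weights in limma 23.8% and 27.6%. With voom on read counts the shares were 15.1% and 16%, and with no filter 5.36% and 3.97%. With 1 library left out, 10.2% to 15.7% were called higher and 8.48% to 14.9% lower. Counts of list members from those fits stand against these shares.

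**Figure D3:**
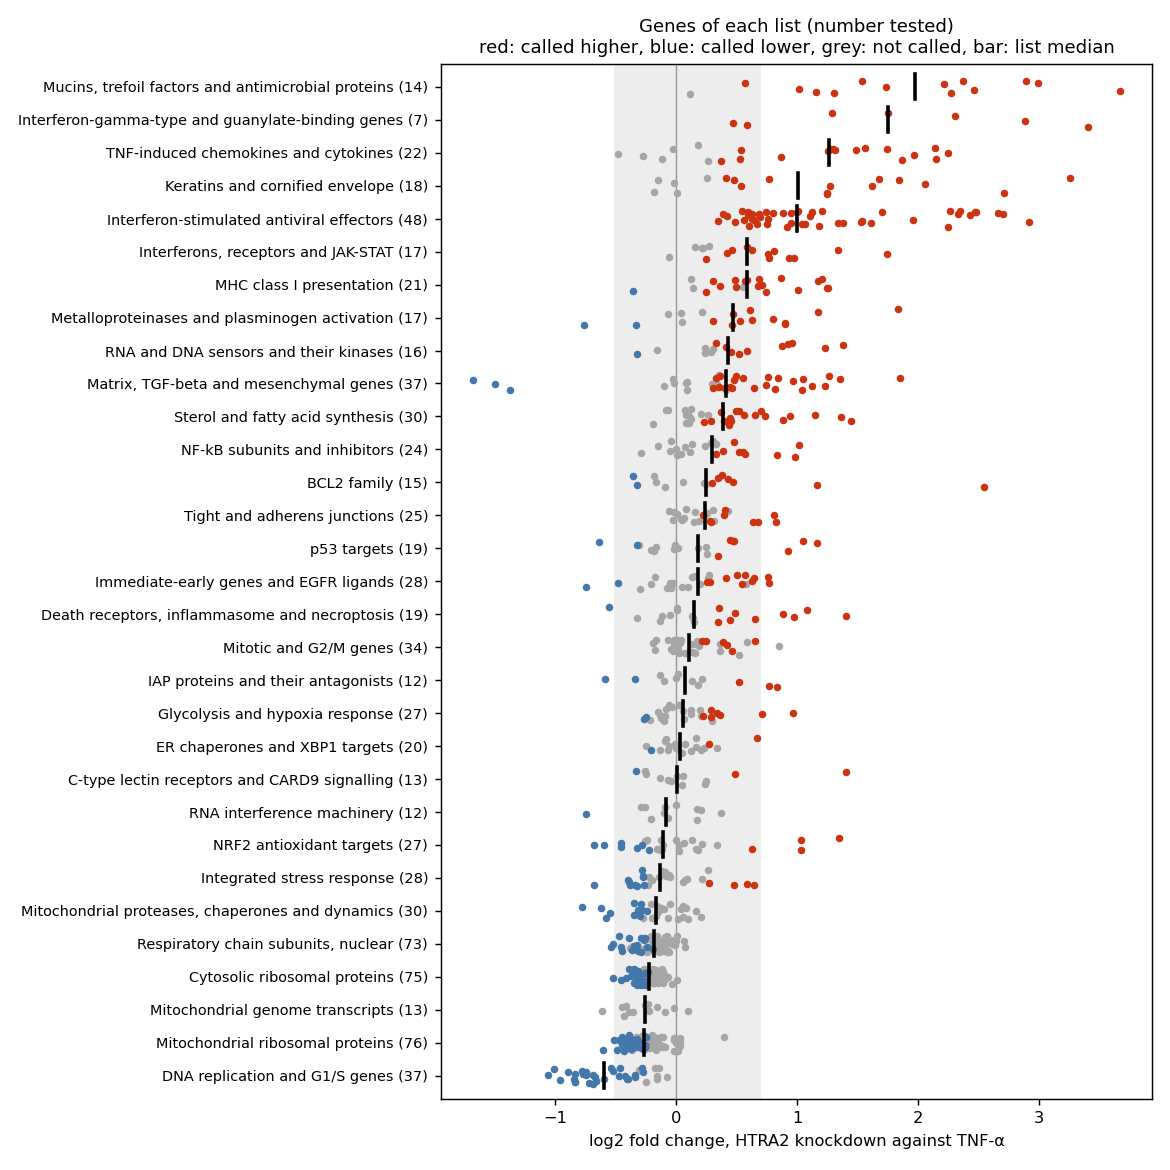
Log2 fold change of each tested gene, knockdown against TNF-α, by gene list, with the number tested in parentheses. Each point is 1 gene, the black bar is the median of the list, and the grey band spans the 5th to the 95th percentile of all genes tested, from -0.50 to 0.69. Lists of interferon-stimulated, antimicrobial and chemokine genes lie to the right, and DNA replication genes lie to the left with a median of -0.60.

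Interferon-stimulated antiviral effectors rose in the knockdown. Of 50 genes written, 48 were tested and 48 rose, against 13.9% of all genes, and 24 were DEGs. The median log2 difference was 1.002, with a range of 0.35 to 2.92. Of the 48, 4 passed the filter only through the knockdown, namely MX2, SAMD9L, TRIM22 and RTP4. For each of the 48 the lowest knockdown library exceeded the highest TNF-α library, which held for 20.1% of all genes. The list's median was 1.11, 0.97 and 0.99 in knockdown libraries 1, 2 and 3, each against the TNF-α mean. When 1 library was left out, 45 to 47 kept the call, and ZC3HAV1, HERC5 and DDX60L, with log2 differences of 0.35, 0.38 and 0.49, were those that lost it.

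OAS2, a synthetase whose oligoadenylate product activates RNase L, had 2.53, 2.23 and 2.90 FPKM with TNF-α and 21.1, 18.6 and 19.98 in the knockdown. The groups were far apart, with a log2 difference of 2.92 (SE 0.12, adjusted p = 1.54e-08). Its paralog OAS1 rose from 4.82, 3.81 and 4.88 to 31.1, 23.2 and 33.3 FPKM. RSAD2, which encodes viperin, a producer of a chain-terminating nucleotide, rose from 1.65, 1.39 and 1.40 to 10.3, 10.1 and 10.2 FPKM (log2 difference 2.71, SE 0.14). Its knockdown libraries lay close together and far above every TNF-α library. MX1, a dynamin-like GTPase that blocks viral nucleocapsids, rose from 2.56, 2.45 and 2.66 to 13.6, 11.7 and 15.2 FPKM. CMPK2, MX2 and IFI27 also ranked among the 7 largest changes of the list. ISG15, a ubiquitin-like modifier that was abundant before the knockdown, rose less, from 354 ± 45.2 to 535 ± 17.6 FPKM (SD, n = 3; log2 difference 0.60). IFIT1, which binds foreign RNA ends, rose from 13.1, 13.9 and 15.7 to 22.4, 23.3 and 23.5 FPKM. Of the 2 genes under the filter, IFI44L went from 22, 22 and 40 reads to 523, 566 and 522, and XAF1 from 18, 15 and 23 to 361, 259 and 245.

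Interferon-stimulated genes carry in their promoters the interferon-stimulated response element (ISRE), to which STAT2 and IRF9 are recruited. The letters GAAA, then any 2 bases, then GAAA were searched on both strands in the 250 bases before the RefSeq gene start (GRCh38.p14). They were found in 22 of the 38 tested members of the list that had a promoter entry, or 57.9%, in 16.4% of 146 DEGs that rose, in 2.43% of all 8202 tested genes with an entry and in 3.07% of all 27195 promoters. A match is a description of letters, and no binding was measured. Shown here, because they belong to the 3 members with the largest changes whose last 150 bases before the start hold the letters, are the promoters of IFI27 (chr14:94110586-94110735 on the plus strand), RTP4 (chr3:187368235-187368384 on the plus strand) and IFI6 (chr1:27672193-27672342 on the minus strand), with the matched letters in capitals.
IFI27: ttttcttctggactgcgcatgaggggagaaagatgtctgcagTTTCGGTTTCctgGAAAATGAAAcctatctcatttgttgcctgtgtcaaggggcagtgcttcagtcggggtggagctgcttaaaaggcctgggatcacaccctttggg
RTP4: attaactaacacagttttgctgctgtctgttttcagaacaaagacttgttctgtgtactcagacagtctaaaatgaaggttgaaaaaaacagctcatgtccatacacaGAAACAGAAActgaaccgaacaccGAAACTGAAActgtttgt
IFI6: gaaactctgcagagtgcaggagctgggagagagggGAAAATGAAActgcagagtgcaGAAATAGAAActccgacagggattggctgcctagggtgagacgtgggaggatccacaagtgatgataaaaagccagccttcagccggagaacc
Each of the 3 holds 2 matches. IFI27, a small membrane protein of mitochondria, rose from 4.26, 3.88 and 6.04 to 27.2, 20.9 and 32.3 FPKM (log2 difference 2.48, adjusted p = 1.28e-06). RTP4, a chaperone of receptor transport, rose from 0.702, 0.661 and 0.811 to 4.25, 4.19 and 3.65 FPKM, and IFI6, an inhibitor of apoptosis and viral replication, from 33.4, 34.4 and 51.6 to 141, 142 and 174. In all 3 genes the groups did not overlap.

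**Figure D4:**
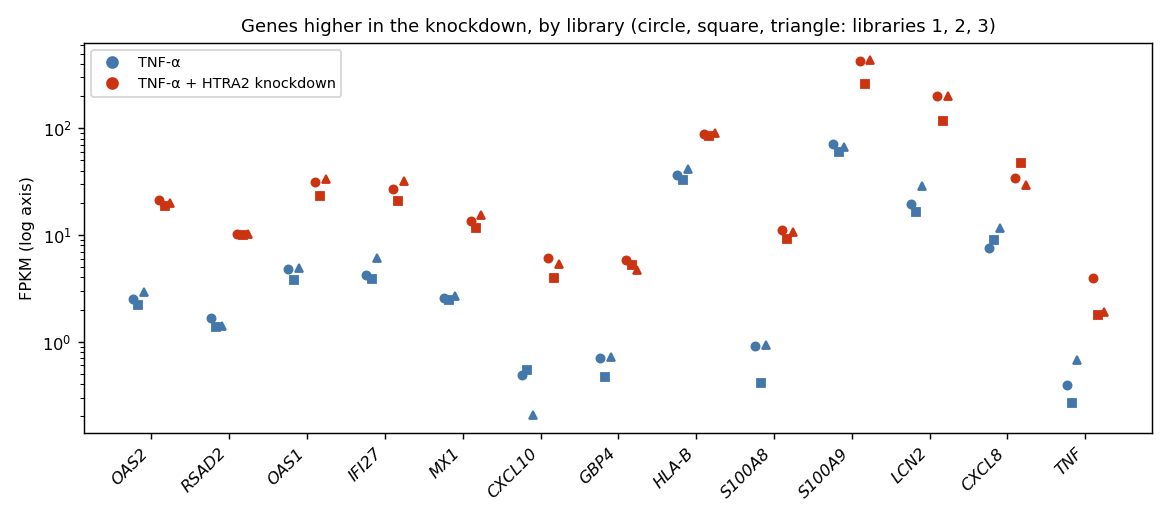
FPKM on a log axis of 13 genes that were higher in the knockdown. Each symbol is 1 library, blue for TNF-α and red for the knockdown, and circle, square and triangle mark libraries 1, 2 and 3. For every gene shown the lowest knockdown library lies above the highest TNF-α library, as in S100A8 with at most 0.933 against at least 9.21 FPKM. CXCL10, GBP4, S100A8 and TNF passed the filter only through the knockdown.

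Sensors upstream of these effectors rose in part. Of 16 tested sensors of RNA and DNA and their kinases, 10 rose and 1 fell. These were 62.5% and 6.25%, against 13.9% and 14.4% of all genes. The median log2 difference was 0.43, and 1 of the 16, DHX58, passed the filter only through the knockdown. The count of rises was 6 without knockdown library 1 or library 3 and 13 without library 2. IFIH1, which encodes the long double-stranded RNA sensor MDA5, rose from 10.5, 10.1 and 11.1 to 27.4, 28.9 and 26.3 FPKM. DDX58, which encodes RIG-I, a sensor of viral RNA ends, rose from 9.66, 7.04 and 9.37 to 16.6, 18.0 and 14.8. IRF7, a transcription factor for interferon genes, and EIF2AK2, which encodes PKR, a kinase activated by double-stranded RNA, rose by 1.23 and 0.58 on the log2 scale. CGAS, the sensor of cytosolic DNA, fell by 0.32, a call that was lost without TNF-α library 2 or 3 or knockdown library 1 or 3. MAVS, the mitochondrial adaptor of the RNA sensors, TBK1 and IRF3 did not pass the test, with log2 differences of -0.16, 0.30 and 0.24.

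Interferon transcripts were scarce. IFNB1 had 2 reads in 1 TNF-α library and 0 in the other 5 libraries, and IFNA1 and IFNG were at 0 FPKM in both groups. IFNL1, a type III interferon that acts mainly on epithelia, rose from 0.254, 0.449 and 0.814 to 2.43, 1.55 and 1.505 FPKM (log2 difference 1.75, SE 0.45, adjusted p = 0.0115), and this call was lost without TNF-α library 1 or knockdown library 1. IFNL3, under the filter, went from 0, 0 and 2 reads to 14, 8 and 17. IFNL2 went from 0 reads in each TNF-α library to 22, 10 and 2, and reads of these close paralogs may be split between them. Of 17 tested interferons, receptors and JAK-STAT members, 12 rose (70.6% against 13.9% of all genes) and none fell. The median was 0.58, and 2 of the 17, IFNL1 and IFNAR2, passed the filter only through the knockdown. STAT2, which carries the signal to the nucleus, rose by 0.81 on the log2 scale. SOCS1, the feedback inhibitor of JAK kinases, rose by 0.97. The receptor chains IFNGR1 and IFNGR2 rose by 0.76 and 0.77, whereas IFNAR1, IFNAR2 and IFNLR1 did not pass the test (log2 differences 0.22, 0.21 and -0.06).

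Genes of the interferon-γ type rose in the same libraries. Of 16 written, 7 were tested and 7 rose, against 13.9% of all genes, with a median log2 difference of 1.75. Of the 7, CXCL10 and GBP4 passed the filter only through the knockdown. CXCL10, a chemokine for T cells, was 0.487, 0.546 and 0.205 FPKM with TNF-α and 6.06, 3.98 and 5.39 in the knockdown, where it was lowest in library 2. Its log2 difference was 3.41 (SE 0.35, adjusted p = 1.90e-05), and in medium it was at 0. GBP4, GBP2, GBP1 and GBP3, guanylate-binding proteins that attack the vacuoles of intracellular microbes, rose by 2.89, 2.30, 1.75 and 1.29. CD274, which encodes the checkpoint ligand PD-L1, rose by 0.58. Under the filter, CXCL11 went from 8, 8 and 0 reads to 63, 51 and 38. The MHC class II gene HLA-DRA went from 0 reads in each TNF-α library to 18, 22 and 14, and CD74, the invariant chain, from 2, 14 and 4 to 105, 45 and 66.

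MHC class I presentation rose as well, with 17 of 21 tested members higher and 1 lower. These were 81.0% and 4.76%, against 13.9% and 14.4% of all genes. The median was 0.58, and 2 of the 21, NLRC5 and ERAP2, passed the filter only through the knockdown. HLA-B, which displays peptides to cytotoxic T cells, rose from 36.7, 32.5 and 41.9 to 89.2, 84.0 and 89.4 FPKM (log2 difference 1.25, adjusted p = 6.24e-06). The immunoproteasome subunit PSMB9 rose from 18.2, 14.1 and 18.2 to 38.2, 37.2 and 38.1 FPKM, and the peptide transporter subunit TAP1 from 29.4, 29.4 and 28.3 to 61.6, 52.7 and 61.9. No knockdown library overlapped TNF-α in these 3 genes, and PSMB10 and HLA-F rose by 1.20 and 1.25 on the log2 scale. The ER chaperone CANX fell from 135 ± 3.77 to 106 ± 13.0 FPKM (SD, n = 3), a call lost without knockdown library 1. TAP2 and CALR did not pass the test, with 0.12 and 0.14.

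Chemokines and cytokines that TNF-α induces stood higher in the knockdown. Of 34 written, 22 were tested and 16 rose (72.7% against 13.9% of all genes), 12 of them as DEGs. The median log2 difference was 1.27, and 4 of the 22, CCL17, TNF, TNFSF10 and TNFSF15, passed the filter only through the knockdown. CXCL8, the main chemokine for neutrophils, was 7.55, 8.89 and 11.5 FPKM with TNF-α and 33.9, 46.8 and 29.6 in the knockdown (log2 difference 1.96, SE 0.20, adjusted p = 1.76e-05). CXCL1, which shares its receptor, rose from 7.36, 7.92 and 11.4 to 29.6, 28.3 and 30.2 FPKM, and CCL5, which draws T cells, from 5.07, 4.26 and 3.53 to 19.2, 11.3 and 17.8. TNF itself rose from 0.390, 0.268 and 0.672 to 3.92, 1.77 and 1.88 FPKM, with knockdown library 1 above the other 2. TNFSF10, which encodes the death ligand TRAIL, rose by 2.14. CXCL2, IL1A, CSF2, IL11, IL18 and IL23A did not pass the test, with log2 differences of -0.48 to 0.27. IL6, under the filter, counted 54, 92 and 86 reads under TNF-α against 38, 30 and 22 in the knockdown, and in the fit with no filter its log2 difference was -1.22 (adjusted p = 0.0581).

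Components of the NF-κB pathway rose in part. Of 24 tested subunits, regulators and inhibitors, 9 rose and none fell (37.5% against 13.9% of all genes), with a median of 0.30. Without knockdown library 2 there were 13 that rose, with the correction for GC content 14, and with array weights 15 rose and 2 fell. TNFAIP3, which encodes A20, a deubiquitinase that shuts the pathway off, rose from 28.9, 28.5 and 27.4 to 59.9, 56.2 and 55.8 FPKM (log2 difference 1.02, adjusted p = 0.000203). NFKBIA, the inhibitor that holds NF-κB in the cytosol, rose from 137, 134 and 142 to 184, 171 and 185, and NFKB2 and BIRC3 rose by 0.55 and 0.83 on the log2 scale. The subunits RELA, RELB and NFKB1 did not pass the test (0.07, 0.30 and 0.29). TNFRSF1A, the receptor for TNF-α, did not pass it either (0.11).

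Antimicrobial genes held the largest difference among the called genes whose groups did not overlap. Of 42 mucins, trefoil factors and antimicrobial proteins written, 14 were tested, 13 rose (92.9% against 13.9% of all genes) and 12 were DEGs. The median was 1.98, and 3 of the 14 passed the filter only through the knockdown: TLR2, CFB and S100A8, which held the largest difference. S100A8, a subunit of calprotectin, which withholds metals from microbes, was 0.921, 0.415 and 0.933 FPKM with TNF-α and 11.1, 9.21 and 10.6 in the knockdown (log2 difference 3.67, SE 0.33, adjusted p = 6.62e-06). Its partner S100A9 rose from 70.7, 60.4 and 66.6 to 430, 258 and 431 FPKM. LCN2, which binds bacterial siderophores, rose from 19.6, 16.3 and 28.97 to 200, 118 and 202. Library 2 was the lowest of the knockdown in all 3 genes and still lay above every TNF-α library. SAA1, an acute-phase protein, and PI3, an elastase inhibitor, rose by 2.37 and 2.89. Most mucins and all trefoil factors lay under the filter. MUC2, the gel-forming mucin of the gut, counted 9, 7 and 3 reads under TNF-α against 22, 26 and 31 in the knockdown, with an adjusted p of 0.0706 in the fit with no filter. NOD2, a sensor of bacterial cell walls, went from 19, 4 and 48 reads to 110, 79 and 76 (adjusted p = 0.0246 in that fit). DEFB1, a constitutive defensin, had 16, 6 and 8 reads and then 20, 20 and 15, with overlapping groups and an adjusted p of 0.173.

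C-type lectin receptors sense fungal glycans and signal through SYK and CARD9 to NF-κB. Of 33 genes of this pathway, 13 were tested, 2 rose and 1 fell, shares of 15.4% and 7.69% against 13.9% and 14.4% of all genes, and the median was 0.01. CLEC7A, which encodes the receptor Dectin-1, lay under the filter, with 62, 54 and 73 reads with TNF-α and 190, 189 and 172 in the knockdown. In the fit with no filter its log2 difference was 1.31 (adjusted p = 0.00229). CARD9, the adaptor, counted 8, 5 and 9 reads under TNF-α against 9, 12 and 7 in the knockdown, and a difference was not detectable at this depth. SYK, the kinase, had 21, 23 and 32 reads and then 36, 50 and 37 (adjusted p = 0.415 in that fit). The 2 that rose were CASP1, the inflammasome protease, from 2.59, 2.47 and 3.19 to 7.22, 7.36 and 7.60 FPKM, and its adaptor PYCARD, and both also stand in the list of death and inflammasome genes. The 1 that fell was PTPN11, a phosphatase, by 0.34, a call lost without any TNF-α library or knockdown library 1 or 3.

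Junction genes rose in part. Of 25 tested genes of tight and adherens junctions, 9 rose and none fell (36.0% against 13.9% of all genes), with a median of 0.24, and none was a DEG. With the correction for GC content 14 rose, and with array weights 16, in fits that called 20.7% and 23.8% of all genes higher. CLDN1, a sealing claudin, rose from 69.8, 72.1 and 71.3 to 112, 113 and 107 FPKM (log2 difference 0.64, SE 0.08, adjusted p = 9.36e-05). TJP3, a scaffold of the junction, rose from 8.36, 7.52 and 7.99 to 15.3, 12.5 and 14.7, and CDH1, which encodes E-cadherin, rose by 0.40. OCLN had 3.75, 4.24 and 4.38 FPKM with TNF-α and 4.99, 4.84 and 4.80 in the knockdown, above every TNF-α library but without passing the test (adjusted p = 0.129). TJP1, which encodes ZO-1, had 13.2, 13.7 and 10.9 and then 12.1, 13.1 and 11.9 FPKM (adjusted p = 0.890), and its groups overlapped.

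DNA replication and G1/S genes fell in the knockdown. Of 38 written, 37 were tested, 30 fell and none rose, against 14.4% of all genes that fell, and 2 were DEGs. The median log2 difference was -0.60, and the members ranged from -1.06 to -0.07. In knockdown libraries 1, 2 and 3 the list's median was -0.73, -0.57 and -0.52, and 27 to 29 members kept the call when 1 library was left out. Each knockdown library lay below all TNF-α libraries for 34 of the 37, against 21.7% of all genes. In bulk RNA, fewer cells in S phase and less of these transcripts per cell cannot be told apart.

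MCM6, a subunit of the replicative helicase, had 27.2, 26.8 and 27.9 FPKM with TNF-α and 12.5, 13.6 and 13.0 in the knockdown (log2 difference -1.06, SE 0.07, adjusted p = 1.28e-06). Another helicase subunit, MCM5, fell from 35.1, 40.5 and 31.1 to 20.01, 15.3 and 22.5. UHRF1, which copies DNA methylation behind the fork, fell from 30.5, 33.6 and 29.4 to 14.5, 15.8 and 15.9, and CDC6, which loads the helicase, from 20.02, 21.3 and 20.3 to 9.44, 11.3 and 10.8. None of these 4 genes had overlapping groups. TK1, LIG1, POLD1, POLE, CDT1, CCND1 and CCNE1 did not pass the test (-0.31 to -0.07), and CCNE2, under the filter, counted 167, 161 and 175 reads under TNF-α against 75, 66 and 81 in the knockdown. Promoters of replication genes carry sites for E2F factors. The letters TTTCCCGC, TTTCGCGC, TTTGCCGC and TTTGGCGC were searched on both strands in the same 250 bases, where matches can overlap each other. They were present in 15 of the 32 tested members with an entry, or 46.9%, in 4.77% of the tested genes and in 2.80% of all promoters. The 150 bases before the start are shown for the 3 members with the largest changes that hold the letters there, MCM6 (chr2:135876444-135876593 on the minus strand), UHRF1 (chr19:4909351-4909500 on the plus strand) and GINS2 (chr16:85688955-85689104 on the minus strand), with matches in capitals.
MCM6: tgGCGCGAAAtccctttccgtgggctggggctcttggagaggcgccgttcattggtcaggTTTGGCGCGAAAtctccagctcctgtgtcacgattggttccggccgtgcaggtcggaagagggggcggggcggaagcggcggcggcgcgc
UHRF1: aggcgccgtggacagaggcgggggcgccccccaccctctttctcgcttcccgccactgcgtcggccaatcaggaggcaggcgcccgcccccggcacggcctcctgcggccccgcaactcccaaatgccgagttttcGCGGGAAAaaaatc
GINS2: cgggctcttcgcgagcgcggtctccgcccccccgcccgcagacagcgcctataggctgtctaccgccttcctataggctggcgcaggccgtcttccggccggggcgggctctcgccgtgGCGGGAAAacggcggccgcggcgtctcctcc
MCM6 holds 3 matches, and the other promoters 1 each. GINS2, a partner of the helicase, fell from 10.8, 11.8 and 11.3 to 5.80, 6.77 and 6.23 FPKM.

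**Figure D5:**
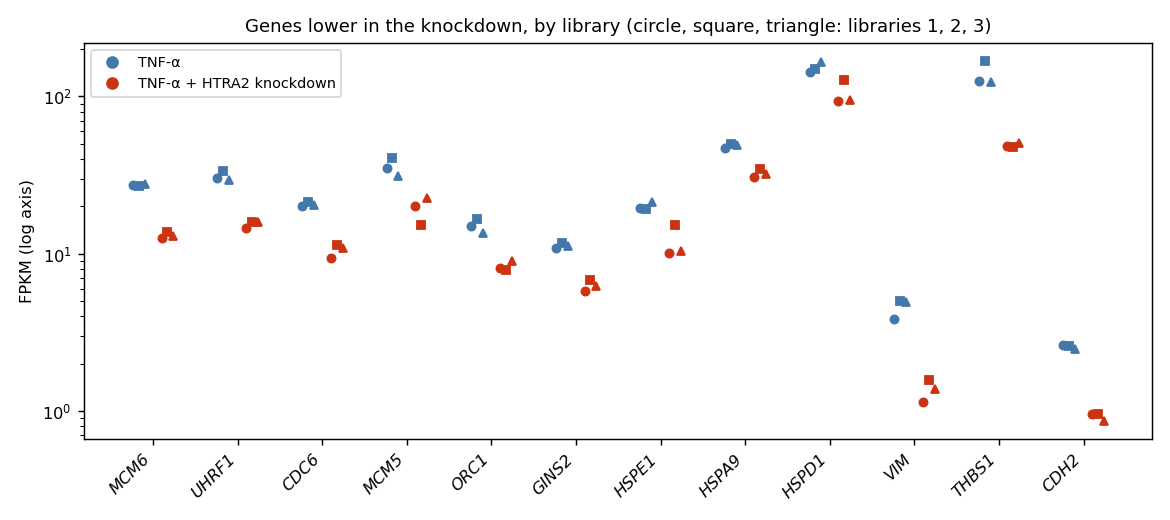
FPKM on a log axis of 12 genes that were lower in the knockdown, from DNA replication (MCM6 to GINS2), mitochondrial chaperones (HSPE1 to HSPD1) and mesenchymal genes (VIM to CDH2). Each symbol is 1 library, blue for TNF-α and red for the knockdown, and circle, square and triangle mark libraries 1, 2 and 3. The groups do not overlap in any gene shown. Knockdown library 2 lies nearest to TNF-α in several genes, among them HSPE1, HSPD1, HSPA9, MCM6, CDC6, GINS2 and VIM.

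Most mitotic genes were not called. Of 34 tested, 6 rose and none fell, with a median of 0.11, and the 17.6% that rose lay near the 13.9% of all genes. Without 1 library the number that rose was between 0 and 7, the 0 being without knockdown library 1. MKI67 and TOP2A rose by 0.46 and 0.42, calls lost without knockdown library 1 and, for TOP2A, also without TNF-α library 2 or 3 or knockdown library 2. With the GC content correction, which called 20.7% of all genes higher, 15 mitotic genes rose and 1 fell. Of 19 tested p53 targets, 7 rose and 2 fell, or 36.8% and 10.5% against 13.9% and 14.4% of all genes. CDKN1A, which encodes the cyclin-dependent kinase inhibitor p21, rose from 60.8, 57.3 and 57.6 to 112, 104 and 118 FPKM (log2 difference 0.92, adjusted p = 1.46e-05). BTG2, an antiproliferative gene, rose by 1.05, and MDM2, the p53 ubiquitin ligase, did not pass the test (0.18). The number of p53 targets that rose was 4 without TNF-α library 2 or knockdown library 1.

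Called genes of mitochondrial protein quality control and dynamics were lower in the knockdown. Of 30 tested mitochondrial proteases, chaperones and dynamics genes, 11 fell and none rose (36.7% against 14.4% of all genes), with a median of -0.16. The number that fell was 5 without knockdown library 1, where 8.52% of all genes were called lower, 6 without TNF-α library 2 and 7 without TNF-α library 1. HSPE1, the co-chaperonin, fell from 19.4, 19.3 and 21.4 to 10.02, 15.2 and 10.3 FPKM (log2 difference -0.78, adjusted p = 0.000758). Its partner HSPD1 fell from 144, 148 and 167 to 94.1, 126 and 95.3, and HSPA9, the import motor chaperone, from 46.8, 49.5 and 49.3 to 30.8, 34.8 and 32.0. Within the knockdown, each of these chaperone genes was highest in library 2. PARL, a rhomboid protease of the inner membrane, fell by 0.62, a call lost without TNF-α library 3 or knockdown library 1. The proteases LONP1, CLPP, CLPX, YME1L1 and OMA1 did not pass the test, with log2 differences of -0.20 to 0.20.

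Of 73 tested nuclear-encoded respiratory chain subunits, 16 fell and none rose (21.9% against 14.4% of all genes, median -0.18). That count was 7 without knockdown library 1, 23 without library 2 and 47 with array weights, where 8.52%, 14.9% and 27.6% of all genes were called lower. None of the 13 genes of the mitochondrial genome was called. Their median was -0.26, and per knockdown library it was -0.10, -0.80 and 0.08, so that without library 2 it was -0.01. Other fits called some of them lower, 3 without knockdown library 3, 1 without TNF-α library 1 or 3, 3 with voom on read counts, 4 with array weights and 2 with a filter at 5 FPKM. Of 76 mitochondrial ribosomal proteins, 33 fell and none rose (43.4%, median -0.27; 57 with array weights), such as MRPL18, from 48.3, 45.7 and 42.7 to 31.2, 30.5 and 35.8 FPKM. Among 75 cytosolic ribosomal proteins, 25 fell and none rose (33.3% against 14.4% of all genes, median -0.22), and RPL5 went from 264 ± 7.38 to 192 ± 4.53 FPKM (SD, n = 3; log2 difference -0.46). That count was 13 without knockdown library 1 and 14 without TNF-α library 1, where 8.52% and 11.1% of all genes were called lower. With no filter it was 13, with voom 42 and with array weights 67, where 3.97%, 16% and 27.6% of all genes were called lower.

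The integrated stress response, through which mitochondrial stress reaches ATF4, did not move in 1 direction. Of 28 tested members, 4 rose and 10 fell, with a median of -0.13. The 14.3% that rose lay near the 13.9% of all genes, and 35.7% fell against 14.4%. The number that fell was 4 to 6 without knockdown library 1 or any 1 TNF-α library, and the number that rose was 2 without TNF-α library 1 or 2 or knockdown library 1 or 3. ATF3 rose from 7.54, 6.73 and 7.47 to 11.5, 10.9 and 11.7 FPKM, whereas the amino acid genes SLC7A11 and PSAT1 fell by 0.68 and 0.38. ATF4, DDIT3, which encodes CHOP, and PHGDH did not pass the test (0.09, 0.26 and 0.22). Of 20 ER chaperones and XBP1 targets, 2 rose and 1 fell, shares of 10% and 5% that lay under those of all genes, and each of these calls was lost without TNF-α library 1 or 2. With the GC content correction 6 rose, and with array weights 7. Of the 27 NRF2 antioxidant targets, AKR1C2 passed the filter only through the knockdown. In this list 4 rose, a share of 14.8% near that of all genes, and 7 fell (25.9% against 14.4%). The counts were 7 and 8 without knockdown library 2, and 4 that fell without knockdown library 1 or TNF-α library 3. SOD2, the manganese superoxide dismutase of mitochondria and a known NF-κB target, rose from 9.68, 8.67 and 11.8 to 23.9, 32.3 and 21.5 FPKM, and GCLM, of glutathione synthesis, fell by 0.60. HMOX1 and NQO1 did not pass the test (-0.12 and 0.00).

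Genes of cell death were tested because cytosolic HTRA2 acts on inhibitor of apoptosis proteins. XIAP, BIRC2 and BIRC5 did not pass the test (-0.10, 0.13 and -0.14), and BIRC3, an NF-κB target, rose from 4.83, 4.73 and 5.39 to 8.27, 11.3 and 7.62 FPKM. CYCS, which encodes cytochrome c, fell from 36.1, 41.9 and 38.5 to 22.0, 29.9 and 26.0. Of 15 tested BCL2 family genes, 7 rose and 2 fell (46.7% and 13.3% against 13.9% and 14.4% of all genes). The share that fell lay near that of all genes, and BCL2A1 passed the filter only through the knockdown. BCL2A1, an anti-apoptotic NF-κB target, rose from 0.150, 0.236 and 0.591 to 2.85, 2.90 and 1.21 FPKM, and BBC3, which encodes the pro-apoptotic PUMA, from 4.63, 4.65 and 4.79 to 12.8, 8.75 and 10.7. BAX and BAD fell by 0.33 and 0.35, calls lost without TNF-α library 2 and, for BAD, also without any other library but knockdown library 3. Of 19 tested genes of death receptors, the inflammasome and necroptosis, 9 rose and 1 fell. The shares were 47.4% and 5.26%, also against 13.9% and 14.4%. CFLAR, which encodes the caspase-8 inhibitor c-FLIP, and NINJ1, which ruptures the membrane of dying cells, rose by 0.97 and 1.08, GSDMA fell by 0.55, and GSDMD, MLKL and CASP8 did not pass the test (0.15, 0.13 and 0.01).

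Keratins and cornified envelope genes rose in 13 of 18 tested members (72.2% against 13.9% of all genes). The median was 1.01, and none fell. SPRR1A, a cross-linked envelope protein, was 0.404, 0.950 and 0.0993 FPKM with TNF-α and 3.49, 5.13 and 4.78 in the knockdown (log2 difference 3.25, SE 0.49), and SPRR2A was 0.538, 0.0905 and 0.454 and then 2.46, 3.29 and 2.09. Of the 18, 3 passed the filter only through the knockdown, namely SPRR1A, SPRR2A and SPRR2D. Of the squamous and basal markers, 3 of 5 tested also rose (60.0%), and of the colon epithelium markers 2 of 5 (40.0%), against 13.9% of all genes. The part of these markers in this was not tested. KRT13, a keratin of stratified epithelia, rose from 3.91, 3.04 and 4.08 to 14.9, 18.3 and 13.6 FPKM. The simple-epithelium keratins KRT8 and KRT18 did not pass the test (-0.18 and -0.02).

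Matrix and mesenchymal genes went both ways, with 23 of 37 tested members higher (62.2%) and 3 lower (8.11%). The shares of all genes were 13.9% and 14.4%. TAGLN and ACTA2 passed the filter only through the knockdown, and CDH2 only through TNF-α. The 3 that fell were among the largest decreases of the comparison. VIM, the intermediate filament vimentin, fell from 3.84, 5.03 and 4.91 to 1.13, 1.58 and 1.39 FPKM (log2 difference -1.68, SE 0.14, adjusted p = 3.04e-06). CDH2, which encodes N-cadherin, fell from 2.61, 2.60 and 2.48 to 0.963, 0.952 and 0.865, and THBS1, an activator of TGF-β, from 126, 169 and 123.3 to 48.6, 47.5 and 50.3. In all 3 genes the groups lay far apart. FN1, fibronectin, rose from 205, 214 and 188 to 529, 431 and 607 FPKM, and TAGLN and the TGF-β-activating integrin subunit ITGB6 rose by 1.85 and 1.26. Of 17 tested metalloproteinases and plasminogen activators, 11 rose and 2 fell (64.7% and 11.8% against 13.9% and 14.4% of all genes). ADAMTS1 in this list passed the filter only through TNF-α. PLAU, urokinase, rose from 55.1, 52.5 and 59.2 to 203, 196 and 197 FPKM (log2 difference 1.84, adjusted p = 3.03e-07), and MMP14 and MMP13 rose by 0.80 and 1.18, whereas MMP1 and MMP9 did not pass the test (0.05 and 0.04).

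Sterol and fatty acid synthesis genes rose in 18 of 30 tested members (60.0% against 13.9% of all genes). The median was 0.38, and none was lower. SCD, the stearoyl-CoA desaturase, rose from 65.0, 58.4 and 44.2 to 151, 156 and 144 FPKM. INSIG1 and SREBF1, regulators of the pathway, rose by 0.94 and 0.74, while FADS1, ACACA and ACLY did not pass the test (0.08, 0.11 and 0.08). Of 28 immediate-early genes and EGFR ligands, 10 rose and 2 fell (35.7% and 7.14% against 13.9% and 14.4% of all genes). EPGN in this list passed the filter only through the knockdown. DUSP6 and EGR1 were higher by 0.76 and 0.55, and FOSL1 and AREG were lower (-0.75 and -0.48). In the glycolysis and hypoxia list 7 of 27 rose and 2 fell, or 25.9% and 7.41% against 13.9% and 14.4% of all genes. There were 4 that rose without knockdown library 1 or TNF-α library 1, and none that fell without TNF-α library 2 or knockdown library 1 or 2. The glucose transporter SLC2A3 and the carbonic anhydrase CA9 rose by 0.71 and 0.97. Of 12 tested genes of the RNA interference machinery, 1 fell and none rose, a share of 8.33% under the 14.4% of all genes that fell. It was DGCR8, the partner of Drosha in microRNA processing, from 6.57, 6.79 and 6.31 to 3.99, 3.62 and 4.01 FPKM. Without TNF-α library 3, where 10.5% of all genes were called lower, 3 genes of the list fell. DICER1, DROSHA and AGO2 did not pass the test (0.17, -0.25 and 0.17).

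Called genes whose groups did not overlap were also ranked by size. The 12 that rose most were S100A8, CXCL10, MIR30C2, MIR635, SPRR1A, LCN2, OAS2, AOC1, PI3, GBP4, SPRR2A and RSAD2, with log2 differences from 3.67 down to 2.71. All but LCN2, OAS2, PI3 and RSAD2 passed the filter only through the knockdown. AOC1, the diamine oxidase that degrades histamine, was 0.349, 0.336 and 0.189 FPKM and then 3.67, 1.88 and 3.01, and was lowest in knockdown library 2. The microRNA precursors rested on few reads. MIR30C2 counted 0, 0 and 1 reads under TNF-α against 6, 11 and 1 in the knockdown, and lost its call without library 1 or 2 of either group. Its groups were kept apart only by 0.381 FPKM in knockdown library 3 against 0.372 in TNF-α library 3, 1 read in each. MIR635 had 1, 1 and 0 and then 5, 11 and 12 and lost its call without TNF-α library 3.

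In the same ranking, the 12 that fell most were AC097451.1, VIM, C19orf33, MIR3176, RF00019, THBS1, LCK, MIR6775, CDH2, SHISA2, ANXA10 and SNORA3B, from -2.47 to -1.33. All but VIM, MIR3176, THBS1 and ANXA10 passed the filter only through TNF-α. AC097451.1 counted 49, 60 and 54 reads under TNF-α against 8, 6 and 11 in the knockdown. ANXA10, an annexin, fell from 8.64, 7.79 and 8.87 to 2.77, 3.69 and 3.29 FPKM, and LCK, a Src-family kinase known from T cells, from 1.55, 1.41 and 1.59 to 0.457, 0.324 and 0.855. C19orf33 fell from 38, 32 and 44 reads to 20, 5 and 12, and the short RNAs MIR3176, RF00019, MIR6775 and SNORA3B had at most 26 reads in any library. Of these 12, RF00019, MIR6775 and SNORA3B lost their calls without TNF-α library 2, among others.

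Single genes also set knockdown library 2 apart. Among genes on which libraries 1 and 3 were close to each other, the non-coding RNA H19 was 21.2 FPKM in library 2 against 2.04 and 3.09 in libraries 1 and 3 and 1.11 to 2.02 with TNF-α, a log2 difference of 3.03 from the mean of the other 2. RPL7AP6, a ribosomal protein pseudogene, was 84.3 FPKM against 29.4 and 33.1, and RPL21P28 and RPS23P8 were higher in the same library by 1.49 and 1.19. Those lowest in library 2 against the others were short or pseudogene transcripts such as MIR4767, MIR4740 and MTND1P23.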

How the data were processed

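RNA of NCM460 cells was sequenced in 12 libraries. The authors deposited gene lengths and, for each library, FPKM. The submitters' processing notes name CASAVA 1.8, HISAT2 2.0.4, HTSeq 0.9.1 and hg38, and the strand setting is not given in the sources used here. Read counts came back whole from the deposited FPKM (100% of values within 0.01 of a whole number) and were used as read counts in the text and for voom. Groups were taken from the titles.

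A model of 1 mean for each group was fitted by limma 3.58.1 in R 4.3.3 to log2(FPKM + 0.1) of all 12 libraries (eBayes with trend, 8 residual degrees of freedom), for genes averaging 1 FPKM or more across the 6 libraries compared. The contrast was the knockdown minus TNF-α, two-sided, with Benjamini-Hochberg adjustment. Log2 differences are on this scale, which understates changes of low genes. DEGs follow the study's threshold, for which it names no test. The fit was tested on simulated data. GC content came from GENCODE 29 transcripts, promoters from RefSeq.

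Named are the 12 genes that rose and the 12 that fell most among called genes without overlap between groups, HTRA2 and the genes overlapping it, the genes the study names, up to 6 called genes each way per list with defining members not called, and 10 genes each way for knockdown library 2. The groups, gene lists and rules were chosen with earlier results of these data known. The alternatives were 2 pseudocounts, 3 filters, 2 scalings, other fits, each library left out and, added after seeing the data, a GC content correction.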

Additional observations from a re-analysis of the deposited data

How the results depend on the processing

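HTRA2 was lower under all 19 alternatives, with a log2 difference from -1.01 to -0.90. Of 860 other named and listed genes tested, 426 were called, and 299 of them kept their call under every alternative run, while 96 lost it under a change of the fit, filter or scaling and 121 without at least 1 library. RPS2 alone among the called genes changed sign, to 0.0032 under quantile normalization, where it was not called. Genes called higher numbered 1563 and lower 1615. With a filter at a mean of 5 FPKM the former was 1007, since fewer genes were tested. With limma arrayWeights the counts were 2672 and 3092, the cause of which was not tested. That fit weighted libraries unequally, with 4.67, 0.222 and 0.725 for knockdown libraries 1, 2 and 3. The weights were 1.73, 0.762 and 0.680 with TNF-α, and 5.06, 0.274 and 0.532 in medium. The DEGs, 234 higher and 54 lower, numbered 132 and 12 with a pseudocount of 1, 557 and 207 with a filter at a mean of 0.1 FPKM across all 12 libraries, 103 and 11 with that at 5 FPKM, and 709 and 260 with no filter, where more or fewer low genes were tested. With quantile normalization the lower DEGs numbered 90, the cause of which was not tested. With 1 library left out, the genes called higher numbered 1141 to 1765 and the lower 951 to 1670, the DEGs 215 to 256 and 54 to 67, and HTRA2 was at -1.01 to -0.94. The GC content correction gave 2317 and 2140 called genes on 11212 genes with a GC value. The fit to the 6 libraries compared called 1372 genes higher and 1229 lower, and 55 of the 426 called genes lost their call there.

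Replicate numbers are shared between the groups, and the labels do not say if same-numbered libraries were handled together. The deviations of same-numbered libraries had correlations of 0.13, -0.19 and -0.23, against -0.13 to 0.28 for libraries of different number. With groups of 3 these values cannot decide if the libraries were paired. The replicate block gave 1403 genes higher and 1351 lower, 235 and 56 DEGs, and left HTRA2 lower at -0.98. Groups of 3 are too small for a test of single outlying libraries, and the exact test cannot go below 0.1.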
